A study of Mus musculus with 60 samples.

Results

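Ketamine and PCP (phencyclidine) are arylcyclohexylamines, and memantine is an aminoadamantane. The 24 striatal arrays labelled ketamine or PCP (12 each) were set directly against the 12 arrays labelled memantine, without passing through saline, so 36 of the 60 arrays of the series carried the comparison. Each array held RNA pooled from the striata of 2 adult male C57BL/6J mice, and each compound was given once, intraperitoneally, to otherwise untreated wild-type animals: ketamine at 20 mg/kg, PCP at 5 mg/kg and memantine at 15 mg/kg. Tissue was taken 1, 2, 4 or 8 h later, with 3 arrays for every compound and time. Saline-injected and naive (uninjected) mice of the same strain and times filled the other 24 arrays (12 each) and are given only as a background level. Because each compound was used at a single dose, and the doses differ, compound and dose cannot be told apart in any difference below.

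All 3 compounds block the NMDA receptor, a glutamate-gated cation channel, by entering its open pore. Ketamine and PCP share an aromatic ring and an amine on a cyclohexane ring. In ketamine the aromatic ring carries a chlorine, the amine is methylated and the cyclohexane holds a ketone, whereas PCP has a plain phenyl ring and its amine is part of a piperidine. Memantine has no aromatic ring: its amine sits on a methylated adamantane cage. Ketamine and PCP are known as dissociative anaesthetics with psychotomimetic effects, and memantine as a drug of Alzheimer's disease. In the striatum, NMDA receptors carry part of the cortical and thalamic input onto the GABAergic projection neurons. Such drugs are also known to raise circulating corticosterone in rodents, which acts through the glucocorticoid receptor, a hormone-activated transcription factor, on target genes in neurons and glia.

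The differences that passed the test were in 2 genes that corticosteroids are known to induce. At 4 h the level of Sgk1, a serum- and glucocorticoid-induced kinase, was 0.423 times as high after ketamine or PCP as after memantine, and that of Cdkn1a, the cyclin-dependent kinase inhibitor p21, was 0.393 times as high. These were the 2 of 43774 tested probes (0.00457%) that passed an adjusted p of 0.05 at any single time. The other 2 Cdkn1a probes, both dimmer, differed less, and both calls depended on single arrays, as described below. Averaged over the 4 times, 0 probes passed (0%), for the classes as for each of the 3 pairs of compounds. The promoter sequences of Sgk1 and Cdkn1a, and of Dusp1, which is described below but did not pass, are shown. Glucocorticoid response elements and cAMP response elements are known from genes of these kinds.

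The windows run from 250 bases before to 50 bases after an annotated start and come from RefSeq on GRCm38.p6, each written 5′ to 3′ on the strand of the gene. The Sgk1 window is number 5 of 6 annotated starts (chr10:21993640-21993939, plus strand), the Cdkn1a window is number 2 of 2 (chr17:29093519-29093818, plus strand), and Dusp1 has 1 (chr17:26508423-26508722, minus strand). Capitals mark the full palindrome of the glucocorticoid response element (AGAACA, any 3 bases, TGTTCT) in Sgk1, and the cAMP response element, TGACGTCA, in Dusp1.
Sgk1: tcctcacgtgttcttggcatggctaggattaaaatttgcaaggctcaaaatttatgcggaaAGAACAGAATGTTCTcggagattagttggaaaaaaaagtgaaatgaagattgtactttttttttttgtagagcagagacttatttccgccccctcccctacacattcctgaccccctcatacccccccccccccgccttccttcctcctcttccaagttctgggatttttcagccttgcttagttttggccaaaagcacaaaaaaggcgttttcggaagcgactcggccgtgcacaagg
Cdkn1a: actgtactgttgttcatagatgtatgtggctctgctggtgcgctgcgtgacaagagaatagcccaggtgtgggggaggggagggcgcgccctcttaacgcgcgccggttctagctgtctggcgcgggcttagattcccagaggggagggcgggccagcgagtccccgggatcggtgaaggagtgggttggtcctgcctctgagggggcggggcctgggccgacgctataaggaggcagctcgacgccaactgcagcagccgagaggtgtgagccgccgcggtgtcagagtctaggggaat
Dusp1: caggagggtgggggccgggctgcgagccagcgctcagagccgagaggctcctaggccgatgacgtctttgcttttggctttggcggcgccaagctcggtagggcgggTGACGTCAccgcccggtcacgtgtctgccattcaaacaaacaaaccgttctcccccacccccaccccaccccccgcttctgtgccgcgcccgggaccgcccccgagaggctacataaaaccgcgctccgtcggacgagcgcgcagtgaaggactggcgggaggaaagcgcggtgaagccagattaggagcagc
Both strands of all windows were searched for both motifs and for TGTTCT, which is also part of the palindrome. The full palindrome was found in 3 of 32851 mouse windows (0.00913%), 1 of which is the Sgk1 window printed, where it starts 189 bases before the start of transcription. The other Sgk1 windows did not hold it, so the Sgk1 window printed is the one with the match. Which start the measured transcripts came from was not determined for Sgk1 or Cdkn1a. Among the 46 windows of the glucocorticoid receptor targets described below, 1 held it (2.17%), this same Sgk1 window. The cAMP response element was found in 588 windows (1.79%), and in Dusp1 it starts 143 bases before the gene. Neither Cdkn1a window held any of the 3 motifs. The shorter TGTTCT stood in 19% of all windows and in 7 of 46 windows (15.2%) of the glucocorticoid receptor targets described below. A match is a description of the letters in these windows and not evidence that a factor binds there.

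Before the comparison, the arrays were looked at as a set. Median raw intensity lay between 166.9 and 408.4 on the ketamine and PCP arrays, and between 191.2 and 395.6 on the memantine arrays. The 395.6 was read on memantine replicate 3 of 4 h, beside 274.9 on the next highest memantine array. The mean correlation of an array with the other arrays was 0.958 to 0.969 for ketamine and PCP and 0.954 to 0.968 for memantine. The 3 memantine arrays of 4 h were at the low end (0.954 to 0.959). The 0.954, the lowest of the drug arrays, was again that of memantine replicate 3, without which 0 probes passed at 4 h, as described below. The saline arrays of 4 h stood further apart, with mean correlations of 0.939, 0.955 and 0.933 and, on the last of them, the highest median intensity of the series, 646.1. The marker genes of striatal projection neurons (Drd1, Pde10a and others, 20 measured) averaged 10.97 to 11.93 on the log2 scale on the ketamine and PCP arrays and 11.65 to 12.29 on the memantine arrays. These are means over the list, and single members could be dim, such as Adcy5 with a mean of 6.543 over the drug arrays. Ketamine replicate 2 of 2 h stood apart: its 10.97 was below the 11.51 of the next lowest drug array, and it had the highest mean of the cortical neuron markers among the drug arrays (9.634). Without it the 2 h median of the glucocorticoid receptor targets described below was −0.16 in place of −0.17, and that of the immediate early genes was −0.21 with or without it. Position on the BeadChip followed the treatment: of the 6 positions, A to F, ketamine arrays took A and B, PCP arrays D and E, and memantine arrays B and C. Position and compound can therefore not be told apart.

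Sgk1 carries sodium and glucose transport signals downstream of the insulin and corticosteroid pathways, and its probe was among the bright ones. At 4 h the normalized log2 intensity of its probe was 11.52, 11.51 and 11.72 on the 3 ketamine arrays, 12.04, 11.59 and 11.82 on the 3 PCP arrays, and 12.68, 12.85 and 13.30 on the 3 memantine arrays. The saline arrays of that time read 11.74, 11.91 and 12.09 and the naive arrays 12.36, 11.57 and 11.73. All 6 arylcyclohexylamine arrays thus lay below every memantine array and close to the saline and naive arrays. The class difference (mean of ketamine and PCP minus memantine) was −1.24 on the log2 scale (SE 0.16, 95% interval −1.57 to −0.916), with an adjusted p of 0.00176 in limma over all probes and the 4 times.

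The class difference in Sgk1 varied with time. At 1 h its mean level was 13.31 after ketamine, 13.05 after PCP and 13.23 after memantine, against 12.44 after saline, and the class difference was −0.06 (95% interval −0.386 to 0.267). At 2 h the means were 12.79 after ketamine, 13.33 after PCP and 13.59 after memantine, and the class difference was −0.53 (SE 0.16, adjusted p = 0.522 in limma). At 8 h they were 12.96 after ketamine, 13.00 after PCP and 12.62 after memantine, a difference of 0.37 (SE 0.16, adjusted p = 0.811 in limma). Each memantine array was above each ketamine and PCP array at 2 and 4 h, and their mean was the lowest of the 3 compounds at 8 h, where the groups overlapped. The test of whether the class difference varied over the 4 times (a moderated F-test in limma) passed for the Sgk1 probe alone, with an adjusted p of 0.0207, 1 of 43774 probes (0.00228%). It did not pass for 11 of the 36 arrays when each was left out (adjusted p up to 0.266), nor with the BeadChip as a fixed block (adjusted p = 0.629 in limma).

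Cdkn1a, which stops the cell cycle and is also a known glucocorticoid receptor and p53 target, passed at 4 h. Its brightest probe read 8.52, 8.74 and 8.41 on the ketamine arrays, 8.77, 8.95 and 8.34 on the PCP arrays, and 9.52, 10.28 and 10.10 on the memantine arrays at 4 h. Saline arrays of 4 h gave 8.35, 7.97 and 9.05. Memantine arrays were again all above the rest, and the class difference was −1.35 (SE 0.20, 95% interval −1.75 to −0.941, adjusted p = 0.0126 in limma). At 1, 2 and 8 h the class differences in Cdkn1a were −0.08, −0.40 and −0.22, none past the threshold. The probes of the gene did not give the same size: the other 2 Cdkn1a probes, both dimmer, differed by −0.29 and −0.34 at 4 h (adjusted p = 0.949 and 0.971 in limma).

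**Figure D1:**
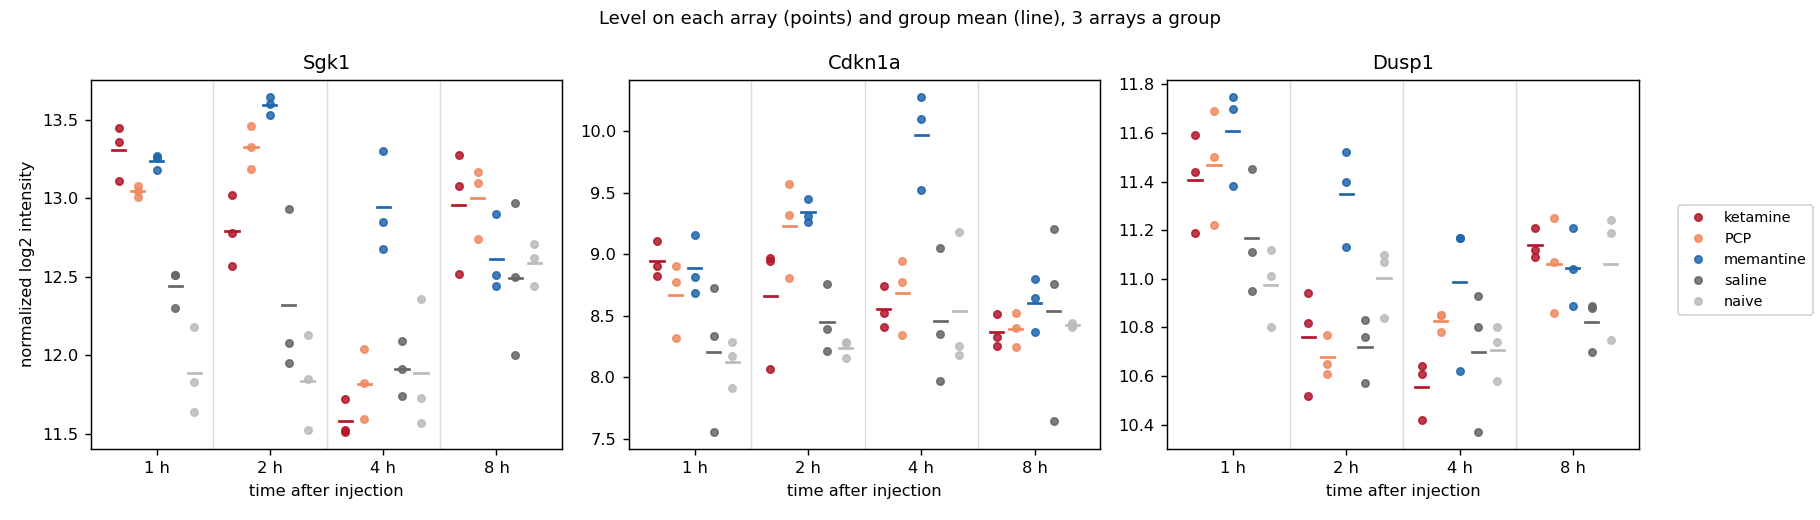
Normalized log2 intensity (vertical axis) of Sgk1, Cdkn1a and Dusp1 on each array (points) with the group mean (line), by time after injection (horizontal axis) and treatment (colour), 3 arrays a group. At 4 h the memantine points of Sgk1 (12.68 to 13.30) and Cdkn1a (9.52 to 10.28) lie above all ketamine and PCP points, and for Dusp1 the separation is at 2 h.

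Single arrays decided these calls. Without memantine replicate 3 of 4 h, 0 probes passed at 4 h (Sgk1 adjusted p = 0.216, Cdkn1a adjusted p = 0.266 in limma), without memantine replicate 1 of 4 h 65 passed (18 lower, 47 higher), and without PCP replicate 3 of 2 h 16 passed. Sgk1 passed and Cdkn1a did not without memantine replicate 2 (adjusted p of Cdkn1a 0.666 in limma), ketamine replicate 3 (0.0589) or PCP replicate 3 (0.0677) of 4 h. The unadjusted p of 5368 probes (12.3%) lay under 0.05 at 4 h, against 1720, 1560 and 1323 probes at 1, 2 and 8 h, with 0 called at each of those times.

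Set against memantine one compound at a time, both arylcyclohexylamines stood lower at 4 h. These comparisons share the memantine arrays, and the 12 pairs of compounds and times were adjusted together. Sgk1 differed by −1.36 between ketamine and memantine (SE 0.18, 95% interval −1.74 to −0.983, adjusted p = 0.0155 in limma), the one probe called in that comparison (0.00228%). That call was lost when any one of the 3 ketamine arrays, or memantine replicate 2 or 3, of 4 h was left out (adjusted p up to 0.362). Between PCP and memantine it differed by −1.12 (SE 0.18, 95% interval −1.50 to −0.748), which did not pass (adjusted p = 0.177 in limma), and 0 probes were called there (0%) although 4353 had an unadjusted p under 0.05. Cdkn1a differed by −1.41 for ketamine (adjusted p = 0.177 in limma) and by −1.28 for PCP (adjusted p = 0.321 in limma).

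Ketamine and PCP, which differ in the substituents of the ring and of the amine, were not told apart by any probe, at any time or on average (0% called). At 4 h ketamine minus PCP was −0.24 for Sgk1 (95% interval −0.613 to 0.141) and −0.13 for Cdkn1a (95% interval −0.596 to 0.338), so these data allow differences up to those bounds. For both genes the values were furthest apart at 2 h, when Sgk1 read 12.78, 12.57 and 13.02 after ketamine and 13.33, 13.19 and 13.46 after PCP. Those arrays did not overlap, but the difference of −0.54 (SE 0.18, 95% interval −0.914 to −0.160) had an adjusted p of 0.865 in limma. Cdkn1a at 2 h differed by −0.57 (95% interval −1.04 to −0.104), with overlapping arrays and an adjusted p of 0.939 in limma. Fos, the immediate early transcription factor, read 8.41, 8.15 and 8.34 after ketamine and 8.79, 9.20 and 8.98 after PCP at 4 h, a difference of −0.69 (adjusted p = 0.81 in limma).

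Over the 4 times, the class difference with the smallest p among probes above the median level was that of Cdkn1a, −0.51 (SE 0.099, 95% interval −0.715 to −0.310, adjusted p = 0.409 in limma). Sgk1 gave −0.37 (SE 0.08, 95% interval −0.531 to −0.204). For ketamine alone the averaged values were −0.57 (Cdkn1a) and −0.44 (Sgk1), for PCP alone −0.46 (Cdkn1a) and −0.30 (Sgk1), and ketamine minus PCP was −0.11 (95% interval −0.346 to 0.122) and −0.14 (95% interval −0.328 to 0.0494). No averaged value passed. The median 95% interval of a probe reached 0.206 to either side in the class comparison and 0.238 in each pair, which is the precision of a typical probe here.

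Other genes with small p in the averaged comparison are named as values only, since none passed. Lower after the arylcyclohexylamines than after memantine were Egr2 (−0.31), an immediate early zinc finger factor, Dusp1 (−0.26), the phosphatase that switches off MAP kinases, Plin2 (−0.31), which coats lipid droplets, Pdgfc (−0.23), a growth factor, Scgn (−0.38), the calcium sensor secretagogin, Itgad (−0.37), an integrin of leukocytes, Ctdspl (−0.23), a small phosphatase, and Crip3 (−0.29). Higher were Hes5 (0.32), the Notch target repressor of neural progenitors and astrocytes, Galc (0.33), the lysosomal galactosylceramidase of myelin turnover, Fkbp1b (0.28), a partner of ryanodine receptors, Panx3 (0.34), a pannexin channel, Hpdl (0.37), Wfdc2 (0.78), Endou (0.39), Zfp367 (0.31), Zfp2 (0.26) and Nipsnap3b (0.25). All of these had an adjusted p of 1. The probes with the smallest p in the pairs were mostly below the median level (Rnf150 −0.46, Megf6 0.44, Stfa2l1 0.50 and Eppin 0.52 for ketamine minus memantine, Sbspon −0.58, Gsdmc3 0.49, Dnah8 −0.39, Cphx1 0.55, Rapgef2 −0.52 and Galc 0.41 for PCP minus memantine, Olfr976 −0.61, Pabpc2 0.75, H2-M10.4 0.66, Phka1 −0.52, Zbtb40 −0.41 and Slc25a51 −0.51 for ketamine minus PCP), with adjusted p of 0.795 at the smallest.

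The 35 genes listed as glucocorticoid receptor targets, all measured, were lower after the arylcyclohexylamines in 30 cases when averaged over the times, with a median of −0.14. Over all 18863 genes (1 probe a gene, the brightest) 9401 were lower (49.8%) and the median was 0.00037. At an unadjusted p under 0.05, 11 of the 35 were lower and 0 higher, beside 2.17% of all genes lower and 2.03% higher. By compound, the counts were 31 lower for ketamine minus memantine (median −0.15, 50.7% of all genes lower) and 29 for PCP minus memantine (median −0.13, 49.5% of all genes lower). The list was drawn up from general knowledge of the receptor but with earlier results of these arrays known, and it holds genes that the study itself had picked on them, so its direction is not independent evidence.

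By time, 20, 27, 29 and 22 of the 35 targets were lower at 1, 2, 4 and 8 h, and their median class differences were −0.028, −0.17, −0.30 and −0.06. Beside this, 50.5%, 53.1%, 48.1% and 49.1% of all genes were lower at these times, with medians between −0.013 and 0.012. At an unadjusted p under 0.05, 0, 8, 16 and 0 targets were lower, beside 1.63%, 1.99%, 6.41% and 1.31% of all genes, and 0, 0, 1 and 2 were higher, beside 1.88%, 1.25%, 7.82% and 1.52%. The mean level of the list was 9.43 to 9.68 on the 6 ketamine and PCP arrays of 4 h and 9.82 to 10.06 on the 3 memantine arrays, against 9.25 to 9.35 after saline and 9.34 to 9.65 in naive mice, the naive arrays overlapping those of ketamine and PCP. At 2 h it was 9.71 to 9.80 after ketamine or PCP and 9.89 to 9.99 after memantine. The groups did not overlap at 2 or 4 h, and at 1 and 8 h they did. With arrays scaled to a common median instead of quantile-normalized, the median of all probes shifted by −0.10 at 4 h and 0.061 at 2 h, and the list's median became −0.74 at 4 h and −0.018 at 2 h. Leaving out any one array of 4 h kept the 4 h median between −0.34 and −0.26, and leaving out memantine replicate 3 of 2 h brought the 2 h median to −0.089.

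Among the targets, 10 of 35 were lower on all 6 ketamine and PCP arrays of 4 h than on all 3 memantine arrays, which was the case for 2.95% of all genes. These were Sgk1, Cdkn1a, Hif3a, Map3k6, Errfi1, Klf9, Pdk4, Bcl6, Gjb6 and Mertk. A further 2, Zbtb16 and Cebpb, were higher without overlap (3.45% of all genes). At 2 h 6 were lower without overlap (1.02%), Sgk1, Tsc22d3, Per1, Dusp1, Arrdc2 and Pdk4, and 0 higher (0.673%). At 1 h (1.12% lower and 0.774% higher over all genes) and 8 h (0.732% and 0.843%) there were 0. Sgk1 and Cdkn1a passed the test over all probes, and the other 8 lower genes did not.

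Hif3a, an inhibitory member of the hypoxia-inducible factors, read 7.96, 8.18 and 8.11 after ketamine, 8.09, 7.99 and 8.65 after PCP and 8.73, 9.26 and 9.71 after memantine at 4 h. The memantine arrays were all higher, the class difference was −1.07 (adjusted p = 0.21 in limma), and the ketamine and PCP arrays in turn lay above saline (7.23, 7.61 and 7.02) but among the naive arrays (8.64, 7.73 and 8.09). The other 2 Hif3a probes, which were dimmer, differed by 0.028 and 0.17. Sult1a1, a phenol sulfotransferase, read 8.89, 9.40 and 9.33 after ketamine, 9.60, 9.62 and 10.05 after PCP and 9.99, 10.79 and 10.51 after memantine. Here 1 PCP array reached into the memantine range, and the class value was −0.95 (adjusted p = 0.21 in limma), with ketamine at −1.22 and PCP at −0.67 from memantine.

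Plin4, a perilipin of lipid droplets, had 7.61, 8.32 and 8.93 after ketamine, 8.54, 8.87 and 8.97 after PCP and 8.95, 9.87 and 10.13 after memantine at 4 h. The groups overlapped at their edge, and the class value of −1.11 had the wide interval of −1.70 to −0.517. Gjb6, the astrocytic gap junction protein connexin 30, had 12.10, 11.74 and 11.97 after ketamine, 12.11, 11.91 and 12.25 after PCP and 12.5, 12.67 and 13.07 after memantine. Its groups did not overlap, with a class value of −0.74 (adjusted p = 0.368 in limma). Bcl6, a transcriptional repressor, and Map3k6, a stress-activated kinase kinase kinase, gave −0.63 and −0.61, and Klf9, a corticosteroid-induced zinc finger factor, −0.40. Pdk4, which restrains pyruvate entry into the citric acid cycle, gave −0.57 at 2 h and −0.51 at 4 h, without overlap of the groups at either time.

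Other targets gave smaller values. Fkbp5, the co-chaperone that curbs the receptor, gave −0.42 at 4 h, with the memantine arrays (9.31, 9.68 and 9.86) reaching into those of ketamine (8.91, 9.42 and 9.54), PCP being lower (8.98, 9.16 and 9.16). All of these stood above saline, which read 8.57, 8.36 and 7.80, and those of ketamine and PCP overlapped the naive arrays (9.23, 9.04 and 8.96). Tsc22d3, the glucocorticoid-induced leucine zipper, gave −0.45 at 2 h and −0.26 at 4 h, Per1, a clock gene with a known response element, −0.57 and −0.02, Nfkbia, the inhibitor of NF-kappaB, −0.52 and −0.24, and Mt2, a metallothionein, gave 0.07 at 4 h (95% interval −0.352 to 0.500). Gpd1, of glycerol phosphate metabolism, gave 0.45 at 4 h (95% interval −0.0379 to 0.932), and Cebpb, a leucine zipper factor, 0.38 (adjusted p = 0.757 in limma).

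**Figure D2:**
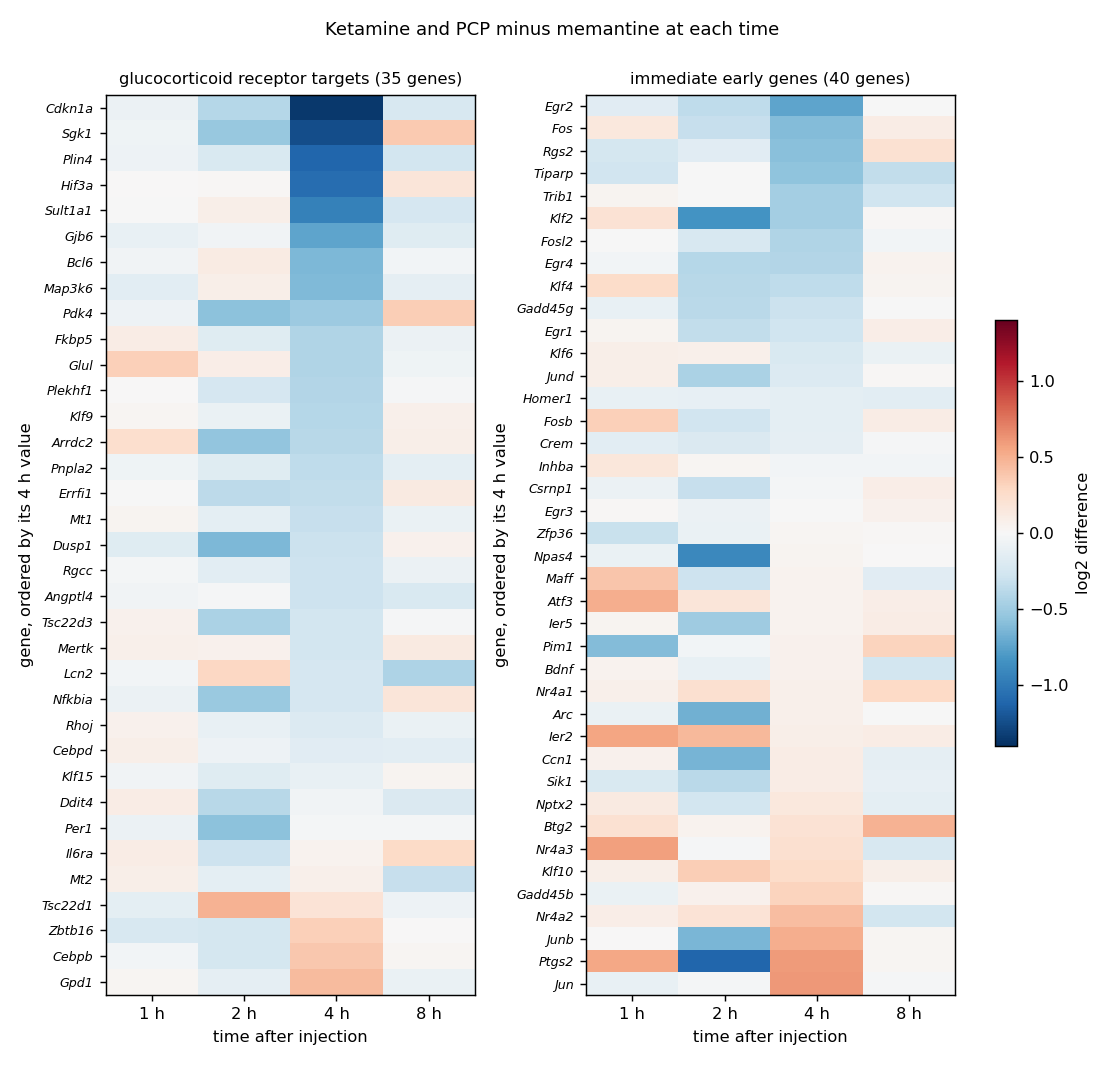
Log2 difference of ketamine and PCP minus memantine (colour, blue lower, red higher) for each glucocorticoid receptor target (left, 35 genes) and immediate early gene (right, 40 genes) by time after injection, with genes ordered by their 4 h value. The ordering itself places the lowest 4 h values in the upper rows (on the left, Cdkn1a −1.35 and Sgk1 −1.24 among them). In the right panel the blue is concentrated at 2 h (Ptgs2 −1.11, Npas4 −0.90).

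By compound, the median of the 35 targets at 4 h was −0.35 for ketamine minus memantine (27 lower) and −0.26 for PCP minus memantine (28 lower), both sharing the memantine arrays, beside medians over all genes of 0.0037 (49.5% lower) and 0.018 (47.8% lower). Set against the saline arrays of 4 h, Sgk1 at 4 h lay at −0.33 after ketamine and −0.10 after PCP, and at 1.03 after memantine. Cdkn1a lay at 0.10 after ketamine and 0.23 after PCP, and at 1.51 after memantine. The naive arrays of 4 h averaged 11.88 for Sgk1 and 8.54 for Cdkn1a, near the saline means of 11.91 and 8.46. These differences share the saline arrays, which stand apart from the rest, and were not tested here.

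**Figure D3:**
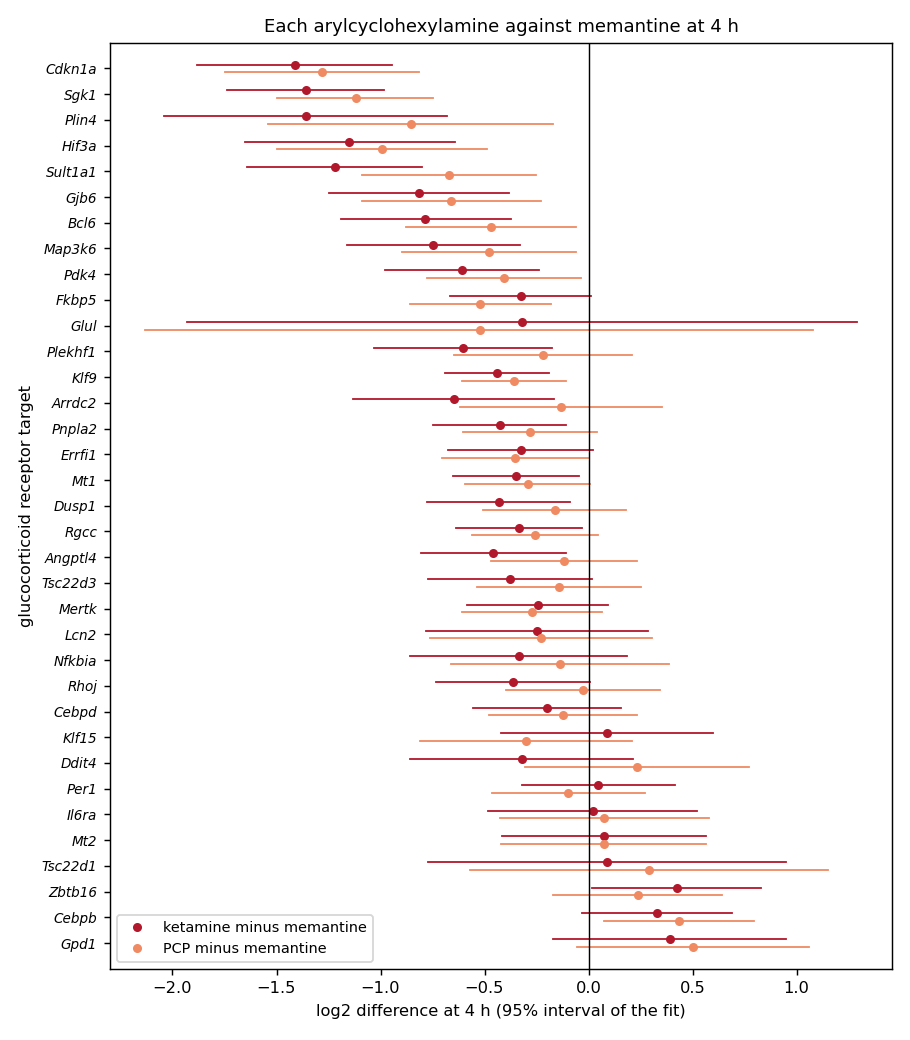
Log2 difference at 4 h (horizontal axis, with the 95% interval of the fit) of ketamine minus memantine (dark red) and PCP minus memantine (orange) for the 35 glucocorticoid receptor targets (vertical axis). Both points of Sgk1 (−1.36 and −1.12) and Cdkn1a (−1.41 and −1.28) lie left of 0 with their intervals, and both points of Gpd1 (0.39 and 0.50) lie right of it with intervals that reach across.

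Ketamine and memantine arrays shared a BeadChip at the same time once at each of the 4 times, PCP and memantine never did. Within those pairs, ketamine minus memantine was −0.15, −0.58, −0.96 and 0.77 for Sgk1 and −0.33, −0.37, −1.1 and −0.55 for Cdkn1a at 1, 2, 4 and 8 h. The mean over the glucocorticoid receptor targets was −0.028, −0.15, −0.28 and 0.064. For both genes and for the list the 4 h pair gave the lowest of the 4 values, at 1 pair a time and without a test. With the BeadChip as a fixed block neither gene passed at 4 h (Sgk1 −1.19, adjusted p = 0.263, Cdkn1a −1.04, adjusted p = 0.34 in limma).

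Immediate early genes, which neurons transcribe within minutes of calcium entry, had most of their lower values at 2 h, and none passed the test. All 40 on the list were measured, and this list too holds genes the study had picked on these arrays. At 1, 2, 4 and 8 h, 16, 31, 19 and 18 of them were lower after the arylcyclohexylamines, with medians of 0.039, −0.21, 0.031 and 0.012. The mean level of the list at 2 h was 8.27 to 8.46 on the ketamine and PCP arrays and 8.54 to 8.66 on the memantine arrays, without overlap, and 8.38 to 8.54 on the saline arrays. Scaling to the array median gave −0.085 at 2 h and −0.34 at 4 h in place of −0.21 and 0.031, and −0.04 at 1 h and −0.069 at 8 h, so the direction at 1, 4 and 8 h turned with the scaling. At 4 h it turned also when any one of 5 arrays was left out: ketamine replicate 3 (−0.035), PCP replicate 1 (−0.051) or 2 (−0.044), or memantine replicate 2 (−0.011) or 3 (−0.17).

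Dusp1 had 10.82, 10.52 and 10.94 after ketamine, 10.65, 10.61 and 10.77 after PCP and 11.52, 11.40 and 11.13 after memantine at 2 h, with saline at 10.83, 10.76 and 10.57. Memantine arrays stood above the others, and ketamine and PCP arrays at the level of saline. The class difference was −0.63 (SE 0.15, 95% interval −0.929 to −0.334, adjusted p = 0.33 in limma), of nearly the same size for ketamine (−0.59) and PCP (−0.68) against memantine, and ketamine minus PCP was 0.09 (95% interval −0.257 to 0.430). Dusp1 belongs to the targets and to the MAPK phosphatases (16 measured, 14 lower at 2 h with a median of −0.11, 1 of them, Dusp1 itself, without overlap, beside 1.02% of all genes).

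Npas4, the neuron-specific activity-dependent factor, had 8.55, 8.33 and 8.11 after ketamine, 7.63, 7.28 and 7.78 after PCP and 8.93, 8.76 and 8.86 after memantine at 2 h. The 3 compounds did not overlap, PCP being lowest. Its class value was −0.90 (adjusted p = 0.358 in limma), made up of −0.52 for ketamine and −1.28 for PCP against memantine, and ketamine minus PCP was 0.77 (95% interval 0.259 to 1.27, adjusted p = 0.846 in limma). Ptgs2, the inducible cyclooxygenase, had 6.21, 6.32 and 5.87 after ketamine, 6.84, 6.37 and 6.15 after PCP and 7.86, 7.29 and 7.06 after memantine at 2 h. Memantine arrays were again higher, with a class difference of −1.11 (adjusted p = 0.358 in limma), on a dim probe. At 4 h the Ptgs2 value was 0.595 (95% interval 0.0578 to 1.13, adjusted p = 0.817 in limma). The dimmer second probe differed from the one described in both genes at 2 h, with 0.089 for Npas4 and −0.018 for Ptgs2.

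Other members at 2 h were Klf2 at −0.83, Arc, the synaptic scaffold of spines, at −0.67, Junb at −0.64 and Egr2 at −0.36. Of the 40, 5 were lower without overlap (Egr1, Npas4, Klf2, Ccn1 and Ptgs2), beside 1.02% of all genes. At 4 h Egr2 had 8.03, 7.52 and 7.83 after ketamine, 8.14, 8.21 and 7.69 after PCP and 9.10, 8.39 and 8.45 after memantine. Its groups did not overlap (−0.74, adjusted p = 0.336 in limma), and Jun, with a value of 0.61 (adjusted p = 0.537 in limma), was without overlap in the other direction. In all, 3 of the 40 were lower and 2 higher without overlap at 4 h, beside 2.95% and 3.45% of all genes. Fos gave −0.33 at 2 h and −0.61 at 4 h.

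The receptors on which the compounds act gave small values. Of the 7 NMDA receptor subunits, 6 had a tested probe, 3 of them lower and 3 higher on average over the times, between −0.106 for Grin2b and 0.121 for Grin3b. Their 95% intervals were −0.281 to 0.0687 for Grin2b, −0.075 to 0.317 for Grin3b, −0.201 to 0.217 for Grin2a, −0.204 to 0.186 for Grin2c, −0.421 to 0.377 for Grin2d and −0.141 to 0.154 for Grin3a. Grin1, the obligatory subunit, had no tested probe. Of the AMPA, kainate and metabotropic receptors (14 measured), Gria1 had the smallest p (0.19 on average, 0.64 at 4 h, adjusted p = 0.373 in limma), and of the other known targets of the drugs (17 measured) Bche, butyrylcholinesterase (0.25). None passed. In the list of BDNF and mTOR signalling (19 measured, median 0.015) Gsk3b, the glycogen synthase kinase, gave 1.25 at 4 h (SE 0.25, adjusted p = 0.21 in limma), while its dimmer probe gave 0.28. The dimmer probes of Gria1 gave −0.11, −0.014 and −0.076 at 4 h, so the probes disagreed for both genes.

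The metabolic lists share members with the targets. Of 23 genes of insulin signalling and glucose uptake, 18 were lower at 4 h with a median of −0.17, and Sgk1, Pdk4 and Map3k6, which belong to both lists, were among the 5 of 23 lower without overlap (2.95% of all genes). Slc2a1, the glucose transporter of endothelium and glia, was another: it had 11.52, 11.49 and 11.81 after ketamine, 11.88, 11.65 and 11.88 after PCP and 12.46, 12.67 and 12.73 after memantine, with saline at 11.08, 11.78 and 11.54. Memantine arrays stood above all others, and the class value was −0.92 (SE 0.18, adjusted p = 0.21 in limma), with −1.01 for ketamine and −0.82 for PCP. Of 24 genes of lipid droplets and fatty acid oxidation, 16 were lower at 4 h, median −0.19, led by Plin4. Of 20 circadian clock genes, 9 were lower and 11 higher at 4 h (51.9% of all genes higher). Per2 (−0.54) was lower and Tef (0.47) higher, each without overlap, which was the case for 2.95% and 3.45% of all genes.

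**Figure D4:**
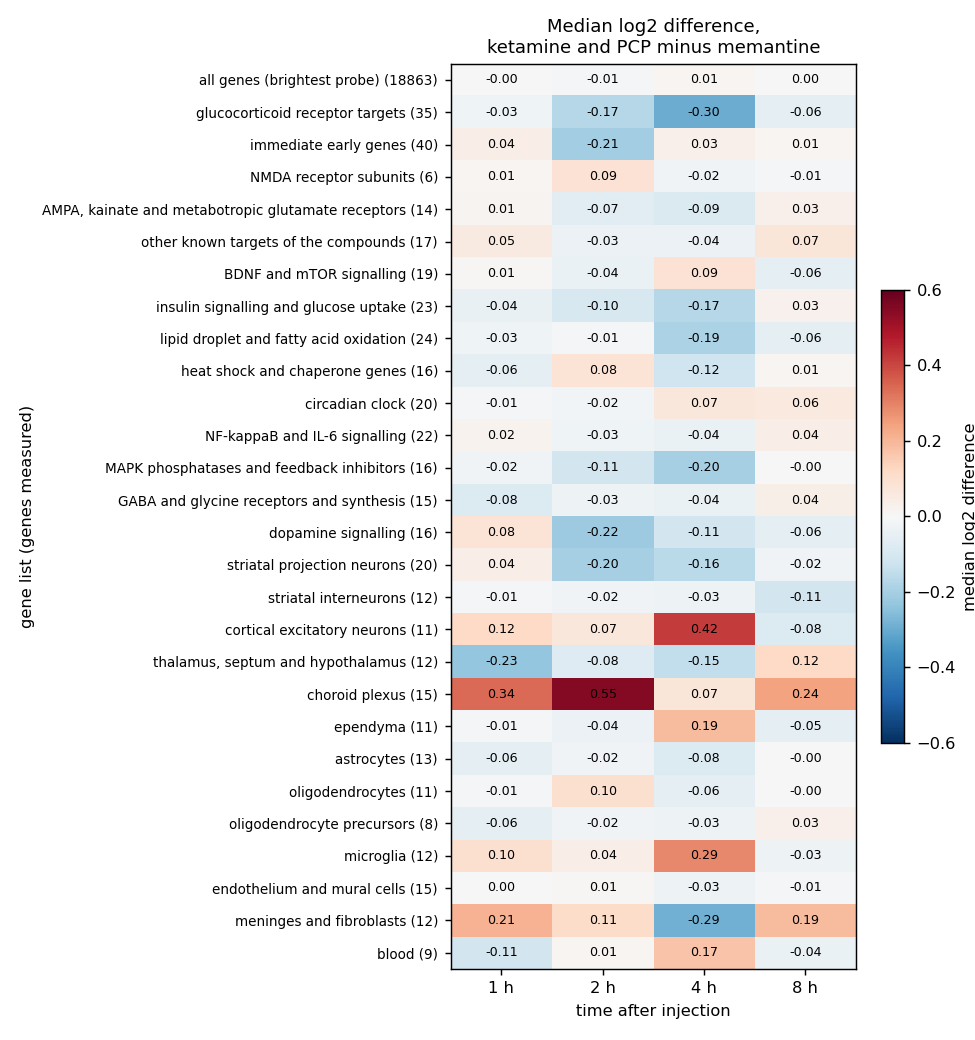
Median log2 difference of ketamine and PCP minus memantine (colour and printed value) for each gene list (vertical axis, genes measured in parentheses) by time after injection (horizontal axis), with all genes in the top row. The glucocorticoid receptor targets reach −0.30 at 4 h and the immediate early genes −0.21 at 2 h, while the choroid plexus markers are at 0.34 and 0.55 at 1 and 2 h.

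Markers of other cells varied between some of these groups, and since the tissue was taken whole, fewer cells of a type and less RNA per cell cannot be told apart. All 15 measured choroid plexus markers were higher after the arylcyclohexylamines on average (median 0.27, with 50.2% of all genes higher), led by Ttr, transthyretin (1.21, 95% interval 0.239 to 2.18). Their mean level was 7.56 to 9.51 on the 24 ketamine and PCP arrays and 7.60 to 8.46 on the 12 memantine arrays. The high values came from few arrays. Ttr at 2 h had 15.84, 15.61 and 15.48 after ketamine, 10.95, 12.90 and 11.65 after PCP and 14.60, 11.96 and 11.91 after memantine. Wfdc2, named above, read 9.45, 9.03 and 9.22 on the same ketamine arrays of 2 h, 7.41, 6.69 and 7.0 after PCP and 7.83, 6.34 and 7.05 after memantine. The part of choroid plexus tissue in any value was not tested, and the list did not separate the classes at 4 h (7.56 to 8.83 after ketamine or PCP, 7.62 to 7.87 after memantine).

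At 4 h other lists stood apart from the median of all genes. The 11 markers of cortical excitatory neurons had a median of 0.42, and their mean level was 8.75 to 9.38 after ketamine or PCP and 8.16 to 9.13 after memantine. Slc17a7, the vesicular glutamate transporter of the cortex, read 11.03, 11.24 and 10.06 after ketamine, 11.54, 11.63 and 10.06 after PCP and 10.92, 10.32 and 7.62 after memantine. Memantine replicate 3, whose omission ended the calls at 4 h, was thus the one with the lowest Slc17a7. The markers of striatal projection neurons at 4 h averaged 11.51 to 11.86 after ketamine or PCP and 11.71 to 12.29 after memantine, with Drd1, the dopamine receptor of the direct pathway, at −0.64 (−0.41 without memantine replicate 2). The 12 microglial markers averaged 9.30 to 9.50 after ketamine or PCP and 9.04 to 9.28 after memantine, without overlap, with Aif1 at 0.62 (0.34 without memantine replicate 3) and Trem2 at 0.51, but Csf1r at −0.59 (−0.38 without memantine replicate 2). The part of these in Sgk1, Cdkn1a and the other targets was not tested.

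**Figure D5:**
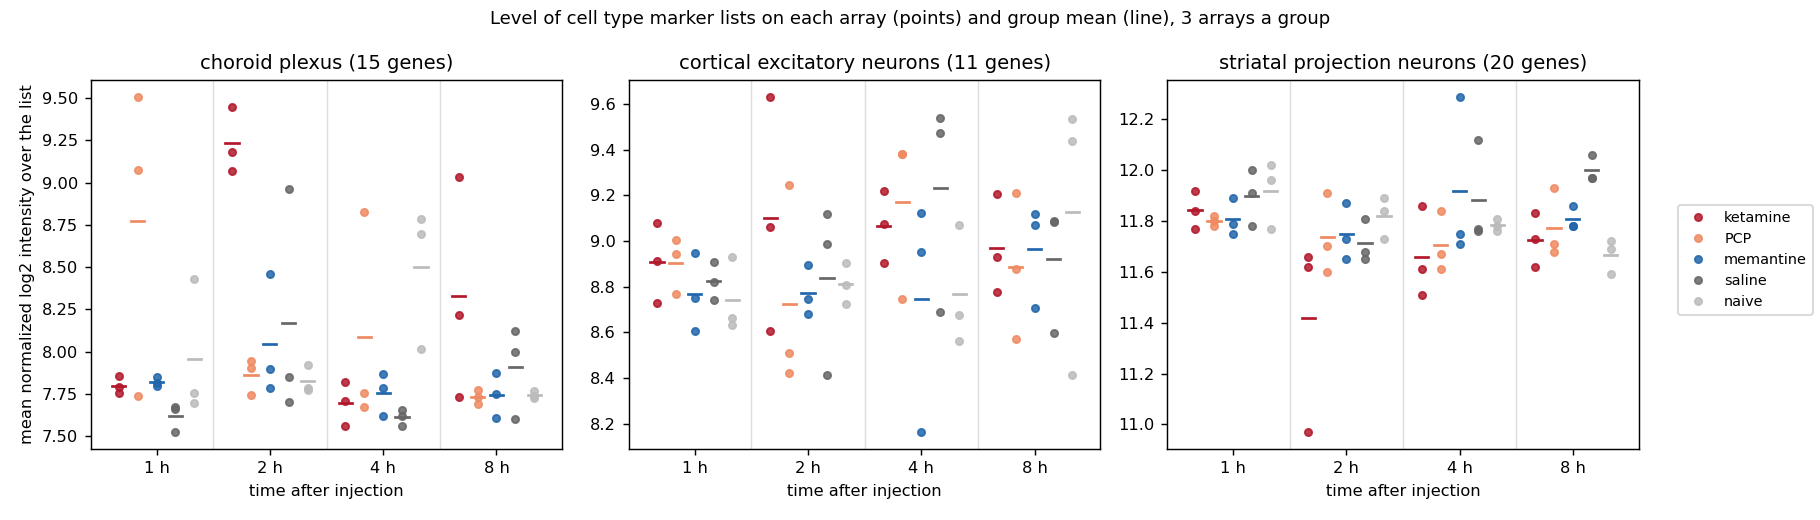
Mean normalized log2 intensity (vertical axis) of the choroid plexus, cortical excitatory neuron and striatal projection neuron markers on each array (points) with the group mean (line), by time after injection (horizontal axis) and treatment (colour), 3 arrays a group. The 3 ketamine arrays of 2 h stand out in the choroid plexus panel, and 1 memantine array of 4 h is low (8.16) in the cortical panel.

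At 1, 2 and 8 h the probes with the smallest p were AI661453 (1.17), Cldn19 (−0.96) and Cypt15 (0.87) at 1 h, Ifnb1 (−0.92), Olfr1322 (−0.68) and Dusp1 (−0.63) at 2 h, and Calcr (0.95), Telo2 (−0.83) and Ttc16 (0.79) at 8 h. Their adjusted p ran upwards of 0.21 in limma. Except for AI661453 and Dusp1, these probes were below the median level, Ifnb1 and Telo2 at percentiles 7.65 and 3.97. After Sgk1, the smallest p for a change of the class difference over time belonged to Cdh11, Krt86, Akap4, Trpa1 and Olfr1322. Each had an adjusted p of 0.554 in limma and a probe below the median level.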

How the data were processed

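Expression was measured on Illumina MouseWG-6 v2 BeadChips. The deposited table held raw probe intensity as exported by the authors from BeadStudio, without detection p-values or control probes, and a second deposited table held the authors' log2 values (background subtraction and quantile normalization in the BeadArray R package), which served as an alternative only. From the intensity, the 60 arrays were background-corrected (normexp, offset 50), quantile-normalized together and put on the log2 scale. Probes above the 25th percentile of their array on at least 3 of the 36 drug arrays were kept (43774 of 45281). In the lists and in the counts over all genes, a gene was given by its brightest probe. A gene named for its p in a comparison was given by its called probe, or else by its probe with the smallest p. Such a value is therefore selected among the probes of the gene. Of the probes, 34885 had 1 symbol, 18 had several and 10378 had none.

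Group means for compound and time were fitted to the 36 drug arrays in limma 3.58.1 (R 4.3.3) with empirical Bayes moderation. P-values were adjusted by the Benjamini-Hochberg method over all probes, taking together the 3 pairs of compounds, the class difference at the 4 times, and the 12 pairs at each time (the last chosen after seeing the data). The class difference weighted ketamine and PCP equally. The method was tested on simulated data with independent noise on each array. These held no BeadChip effect, outlying array or normalization step, so they cannot tell how the calls depend on those. The number of arrays limits the precision, and nothing says whether the pools of a group came from separate injection days, so p-values measure the spread between these pools.

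Genes were named from probes with 1 symbol: called genes, filled to 10 per direction by smallest p among probes above the median level (class difference), the 6 with the smallest p (each pair, and the change over time), the 3 with the smallest p (each time), up to 4 members of each list and all NMDA receptor subunits. Further list members, and the markers beside them, were named after their values were seen. Compounds, lists and rules were chosen with earlier results of these data known. No 2 arrays held identical values. Alternatives were median scaling, no background correction, the authors' values, a stricter filter, BeadChip or replicate number as a block, unmoderated, trended and robust fits, all 60 arrays in the fit, and leaving out each array or time.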

Additional observations from a re-analysis of the deposited data

Results flagged for a closer look

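The class difference in Sgk1 varied over the 4 times, by a test of the difference itself (moderated F-test in limma, adjusted p = 0.0207 over all probes). Ketamine and PCP minus memantine was −0.06 at 1 h, −0.53 at 2 h, −1.24 at 4 h and 0.37 at 8 h, with all 6 arylcyclohexylamine arrays below all 3 memantine arrays at 2 and 4 h. The call was lost with the BeadChip as a fixed block (adjusted p = 0.629 in limma), with median scaling (0.841), with all 60 arrays in the fit (0.138), with any of the 4 times left out (0.0686 to 1) and for 11 of 36 single arrays left out.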

How the results depend on the processing

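Sgk1 and Cdkn1a stood lower after ketamine and PCP than after memantine at 4 h under all alternatives run, but the number of probes called moved. Of the 2 calls at 4 h, 1 was left with median scaling (Cdkn1a, with Sgk1 at −1.58 and an adjusted p of 0.276 in limma) and 1 with unmoderated variances (Sgk1), and the 1 call with the BeadChip as a fixed block was another gene, Itpa. With all 60 arrays in the fit 2 passed, Sgk1 and Rpl27a, and not Cdkn1a (adjusted p = 0.071 in limma). Leaving out single arrays gave 0 to 65 calls. For ketamine minus memantine at 4 h, 1 call became 4 with the authors' values, without background correction or with adjustment within the comparison, 3 with a trended and robust variance, 3 with the BeadChip as a fixed block (none of them Sgk1, adjusted p = 0.561, or Cdkn1a, adjusted p = 0.594 in limma), 2 with the stricter filter and 0 with median scaling or all 60 arrays, with 0 to 16 when single arrays were left out. For PCP minus memantine at 4 h, 0 calls became 1 with the authors' values, without background correction, with the stricter filter, with the trended variance or with adjustment within the comparison, and 0 to 11 without single arrays. For ketamine minus PCP at 4 h the range without single arrays was 0 to 1, as for the class at 1 h.

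Averaged over the times, 0 calls became 1 for the class and 1 for ketamine minus memantine when 8 h was left out (Sgk1, −0.612, adjusted p = 0.00576 and −0.697, adjusted p = 0.0217 in limma), and 1 for the class with a test over the 4 times together. The change of the class difference over time, called for 1 probe, was called for 0 with median scaling, the BeadChip block, all 60 arrays or any of the 4 times left out, for 2 with unmoderated variances and for 0 to 7 without single arrays, and the adjusted p of Sgk1 was above 0.05 for 11 of 36 arrays left out (0.00223 to 0.266): at 4 h replicates 1 and 2 of ketamine, 2 and 3 of PCP and 2 and 3 of memantine, and at 8 h replicates 1 of ketamine, 1 and 3 of PCP and 1 and 2 of memantine. The causes were not tested. Ketamine minus PCP in Cdkn1a at 4 h turned to 0.000994 without PCP replicate 2, with −0.301 at the other end of the range.

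Replicate numbers did not pair the arrays (correlation of same-numbered arrays of one time −0.22 to 0.19), and with the replicate block 2 probes passed at 4 h, Sgk1 (adjusted p = 0.000303 in limma) and Cdkn1a (adjusted p = 0.0324 in limma). Arrays of the same BeadChip correlated at −0.046 to 0.33 (mean 0.13 over 48 pairs), which the main fit did not take into account. Neither range is of the levels themselves, whose mean correlation with the other arrays was 0.954 to 0.969 on the drug arrays. With the BeadChip as a random block (estimated correlation 0.0881) both genes passed too. Without detection p-values, how far dim probes stand above background is unknown.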
